A study of Homo sapiens with 24 samples.

Results

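The genes described here are the zinc finger genes of human chromosome 19. They are the protein-coding genes of that chromosome in GENCODE 29 whose symbol is ZNF followed by a number and at most 1 letter. There were 244 of them among the 57820 genes of the deposited gene table. Their mRNA was measured in 24 stranded libraries of HUES6, an established human embryonic stem cell line. The libraries labelled KO came from derivatives of HUES6 with a knockout of the gene RBPMS, whose product binds RNA, and those labelled WT from HUES6 cells of the wild-type genotype. Both genotypes were grown in FTDA medium and sampled untreated (0 h) and at 3, 6 and 48 h of mesoderm induction. Induction used the growth factor BMP4 at 1.5 ng/ml and CHIR, which activates WNT signalling by inhibiting the kinase GSK3, at 1.5 µM. Each of the 8 groups held 3 libraries. The labels do not say how the knockout was made, how many clones carry it, or whether replicate libraries were grown as separate cultures. They also do not say whether the hours of a genotype came from the same clone or culture. A change between hours can thus not be told apart from a difference between cultures. The p-values therefore describe no more than the spread among these libraries.

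Most genes of this family encode proteins with a KRAB domain and an array of C2H2 zinc fingers. The fingers bind DNA, often inside transposable elements, and the KRAB domain recruits the co-repressor TRIM28, which brings in the histone methyltransferase SETDB1, HP1 proteins and DNA methylation. The genes arose by repeated duplication and lie in clusters, many of them at the ends or near the centromere of chromosome 19. In human embryonic stem cells the family is known for silencing retroelements and for maintaining imprints.

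The gene table gives CPM, reads per gene scaled to the library's total and not to gene length, and the whole reads behind it numbered 29896358 to 50451908 per library. A gene with 0 reads may have had up to 0.0595 to 0.1003 CPM (3 reads), a limit that covers counting error only. RBPMS mRNA was present in every KO library, for example at 93.1, 90.5 and 104 CPM at 3 h, against 105, 105 and 107 CPM in the WT libraries, so its level did not check the labels. The stem cell markers POU5F1 and SOX2 were present throughout, and the mesoderm gene MIXL1 was at 558, 487 and 555 CPM in KO and 872, 803 and 630.4 CPM in WT libraries at 48 h. Across all tested genes 3 libraries stood apart from the others of their group, WT 0 h library 1, KO 3 h library 3 and WT 48 h library 3, with correlations of 0.975 to 0.991 against 0.996 to 0.998 for the nearest replicate of the other libraries. WT 0 h library 1 was nearest to a KO library of 0 h (correlation 0.987), nearer than to its own replicates, which bears on each comparison with untreated WT. Counts of called genes and of genes on or off are also given without these libraries. A lower level in bulk RNA may be fewer cells or less RNA per cell, which cannot be told apart here.

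A gene was counted as on in a library at 1 CPM or more and as off under 0.25 CPM, and as on or off in a group when all 3 libraries were. Of the 244 genes, 197 were on in all 24 libraries and 9 were off in all 24 (ZNF556, ZNF177, ZNF98, ZNF492, ZNF99, ZNF723, ZNF728, ZNF536 and ZNF534). The other 38 varied between libraries. Before induction 215 genes were on and 16 off in KO, against 214 on and 11 off in WT. At 3 h 206 were on and 25 off in KO, against 218 on and 13 off in WT. At 6 h 202 were on and 25 off in KO, against 216 on and 13 off in WT. At 48 h 218 were on and 16 off in KO, against 221 on and 13 off in WT. Without WT 0 h library 1 untreated WT had 215 on and 15 off, without KO 3 h library 3 that group had 207 on and 25 off, and without WT 48 h library 3 that group had 222 on and 14 off. The KO libraries at 3 h and 6 h thus had the fewest genes on, with 204 to 212 per library, against 216 to 224 in the other 18 libraries.

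**Figure D1:**
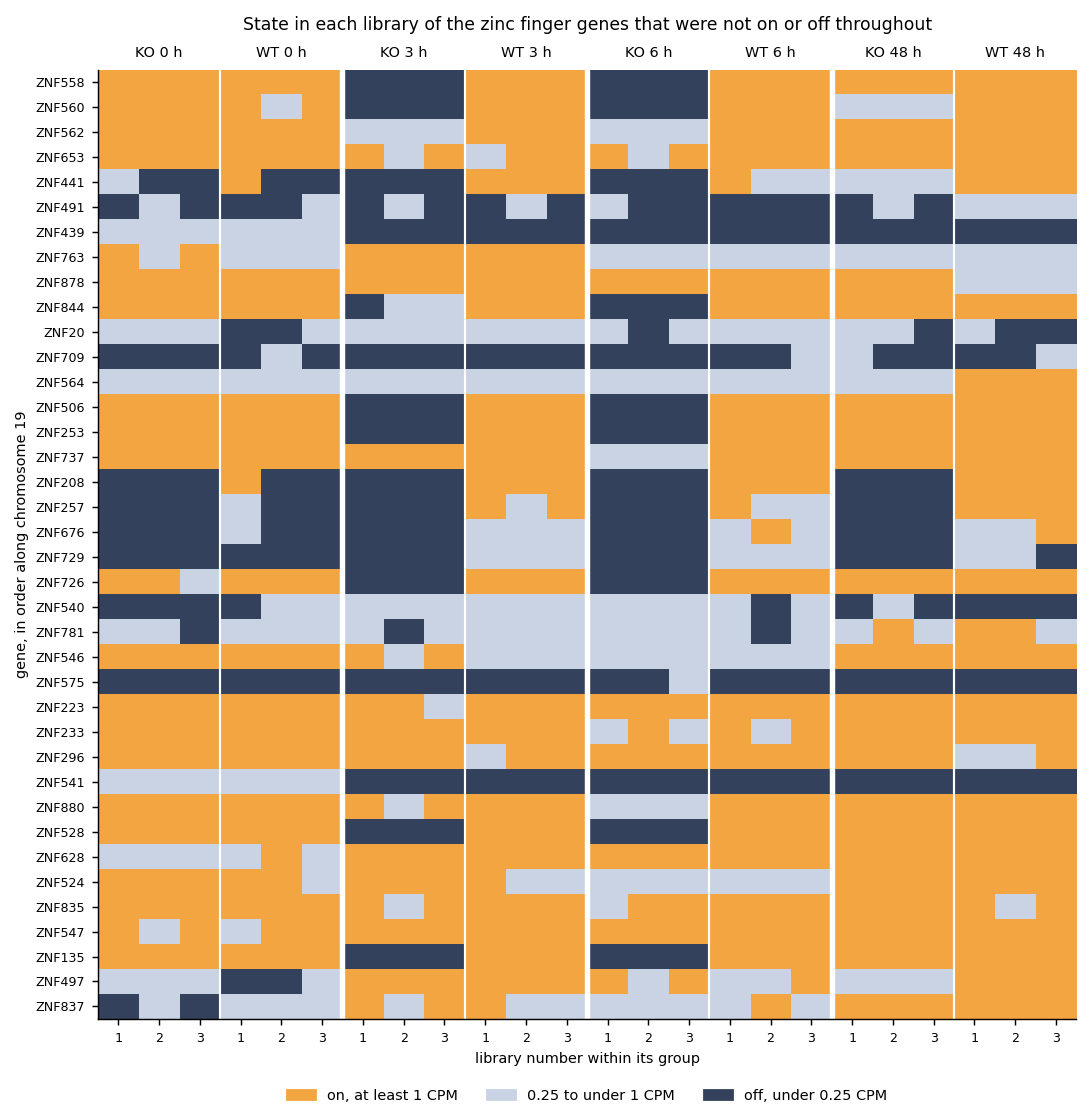
State of the 38 varying zinc finger genes in each of the 24 libraries, with genes in order along chromosome 19 and hours from left to right, KO beside WT. Dark cells are under 0.25 CPM, light cells are 0.25 to under 1 CPM and orange cells are 1 CPM or more. A block of dark cells appears in the KO libraries at 3 h and 6 h, and ZNF208 is dark in all 12 KO libraries.

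A total of 11 genes switched, that is they were on in 1 group and off in another: ZNF558, ZNF560, ZNF441, ZNF844, ZNF506, ZNF253, ZNF208, ZNF257, ZNF726, ZNF528 and ZNF135. These are 4.89% of the 225 zinc finger genes that were on in some group, near the 4.25% of all 15520 genes that were on in some group, so switching as such did not set the family apart. A narrower pattern held 5 of the 11, which were on in every KO library of 0 h and 48 h and off in every KO library of 3 h and 6 h: ZNF558, ZNF135, ZNF253, ZNF506 and ZNF528. That is 2.22% of the 225 genes, against 0.335% of all genes on in some group (52 genes). All 5 were on in all 12 WT libraries, and no zinc finger gene had the same pattern in WT. Under a stricter rule, at least 5 CPM at 0 h and 48 h and at most 0.5 CPM at 3 h and 6 h in every KO library, 21 genes of the whole table passed, and 4 of them were zinc finger genes of chromosome 19 (ZNF558, ZNF844, ZNF135 and ZNF253).

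ZNF558 (ENSG00000167785.4) lies at 8806170 to 8832328 on the minus strand in hg38. It encodes a KRAB zinc finger protein that represses the mitophagy gene SPATA18 in human neural progenitors. ZNF844 (ENSG00000223547.5) lies at 12064699 to 12081565 on the plus strand, and ZNF135 (ENSG00000176293.15) at 58059239 to 58086310 on the plus strand, close to the end of the long arm. ZNF57 (ENSG00000171970.8), a zinc finger gene on the short arm, lies at 2900898 to 2918476 on the plus strand and was on in all 24 libraries. The intervals, on chromosome 19, are whole genes in GENCODE 29. The promoters of these 4 genes and of ZNF208 and ZNF257 are printed because the results below rest on these 6 genes. Each runs from 250 bases before to 50 bases after a RefSeq gene start in GRCh38.p14, at chr19:8832255-8832554 (minus strand) for ZNF558, chr19:12064481-12064780 (plus strand) for ZNF844, chr19:58058989-58059288 (plus strand) for ZNF135, chr19:2900678-2900977 (plus strand) for ZNF57, chr19:22010894-22011193 (minus strand) for ZNF208 and chr19:22052234-22052533 (plus strand) for ZNF257. Capitals mark the CCAAT-box motif CCAATCA or its reverse complement TGATTGG.
ZNF558: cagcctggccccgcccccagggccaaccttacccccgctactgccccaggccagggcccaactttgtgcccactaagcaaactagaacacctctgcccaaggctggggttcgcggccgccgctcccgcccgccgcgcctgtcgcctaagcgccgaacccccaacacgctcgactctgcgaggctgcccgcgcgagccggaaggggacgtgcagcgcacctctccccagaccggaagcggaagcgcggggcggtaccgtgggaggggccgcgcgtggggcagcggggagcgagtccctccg
ZNF844: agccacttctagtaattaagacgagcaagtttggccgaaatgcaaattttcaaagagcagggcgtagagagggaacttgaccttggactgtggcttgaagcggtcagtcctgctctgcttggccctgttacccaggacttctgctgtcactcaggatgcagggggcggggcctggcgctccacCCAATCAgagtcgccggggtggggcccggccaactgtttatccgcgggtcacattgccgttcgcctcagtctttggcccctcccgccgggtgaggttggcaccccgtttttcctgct
ZNF135: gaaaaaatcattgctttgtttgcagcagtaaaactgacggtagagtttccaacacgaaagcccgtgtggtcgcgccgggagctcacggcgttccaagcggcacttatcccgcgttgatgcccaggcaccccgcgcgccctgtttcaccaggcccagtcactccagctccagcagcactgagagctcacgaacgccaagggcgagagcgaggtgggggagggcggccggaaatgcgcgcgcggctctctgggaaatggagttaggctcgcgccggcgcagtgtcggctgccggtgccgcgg
ZNF57: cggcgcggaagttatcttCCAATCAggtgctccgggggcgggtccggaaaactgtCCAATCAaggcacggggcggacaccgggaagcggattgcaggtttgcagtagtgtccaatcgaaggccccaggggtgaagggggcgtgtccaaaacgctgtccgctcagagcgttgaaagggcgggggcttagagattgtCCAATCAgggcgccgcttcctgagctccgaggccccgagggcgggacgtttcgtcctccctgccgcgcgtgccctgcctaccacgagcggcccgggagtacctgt
ZNF208: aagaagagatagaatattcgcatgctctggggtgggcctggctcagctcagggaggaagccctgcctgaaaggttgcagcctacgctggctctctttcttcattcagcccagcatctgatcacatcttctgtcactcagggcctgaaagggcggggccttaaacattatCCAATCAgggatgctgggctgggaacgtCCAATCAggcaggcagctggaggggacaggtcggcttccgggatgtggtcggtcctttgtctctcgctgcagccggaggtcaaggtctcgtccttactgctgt
ZNF257: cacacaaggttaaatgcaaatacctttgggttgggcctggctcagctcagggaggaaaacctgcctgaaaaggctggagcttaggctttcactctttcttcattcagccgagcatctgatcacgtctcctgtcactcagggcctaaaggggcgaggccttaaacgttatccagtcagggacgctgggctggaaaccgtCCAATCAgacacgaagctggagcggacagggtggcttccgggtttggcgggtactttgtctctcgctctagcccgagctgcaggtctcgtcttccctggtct

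The motif was absent from these windows of ZNF558 and ZNF135, occurred 1 time in those of ZNF844 and ZNF257 and 2 times in that of ZNF208, and occurred 3 times in that of ZNF57, the gene that stayed on. The motif is thus not shared by all 6 windows. The windows of ZNF208 and ZNF257, which are neighbours, were 64% identical without gaps, against 31.9% to 37.5% for the other pairs of the 6. The dinucleotide CG occurred 34 times in the ZNF558 window, 16 in ZNF844, 32 in ZNF135, 29 in ZNF57, 10 in ZNF208 and 13 in ZNF257.

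ZNF558 was nearly or wholly without reads in the 6 KO libraries at 3 h and 6 h, and on in the other 18 libraries. At 0 h it had 22.03, 19.3 and 21.3 CPM in the KO libraries and 31.0, 15.01 and 16.7 CPM in the WT libraries. At 3 h it had 0.0771, 0 and 0.0216 CPM in KO and 25.6, 25.4 and 24.1 CPM in WT, and at 6 h 0 reads in all 3 KO libraries against 18.1, 17.9 and 18.02 CPM in WT. At 48 h it had 18.4, 18.3 and 15.7 CPM in KO and 30.3, 30.7 and 26.02 CPM in WT. The groups did not overlap at 3, 6 and 48 h. In reads the 3 KO libraries of 3 h held 4 against 3200 in WT, a level 777 times lower (95% counting interval 303 to 2855). At 6 h they held 0 against 2430, at least 230.0-fold lower with 3 reads per library as the floor. The log2 differences between KO and WT, on log2(CPM + 0.25) after TMM scaling, were -6.53 ± 0.17 (adjusted p = 3.5e-18) at 3 h and -6.28 ± 0.17 (adjusted p = 7.01e-18) at 6 h, by limma over all 19835 genes with Benjamini and Hochberg adjustment. On this scale the pseudocount makes the change of genes near 0 too small. At 48 h the difference was -0.69 ± 0.17 (adjusted p = 0.00904), a call that ended without KO 48 h library 3 (adjusted p = 0.0549), and at 0 h it was 0.11 ± 0.17 (adjusted p = 0.741).

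ZNF844 moved in the same way but kept some reads. At 3 h it had 0.180, 0.257 and 0.475 CPM in KO and 27.7, 28.6 and 29.3 CPM in WT libraries, and at 6 h 0.164, 0.150 and 0.234 CPM in KO and 21.9, 19.9 and 24.4 CPM in WT. It stood at 26.5 to 28.97 CPM over the 6 KO libraries at 0 h and at 48 h, against 16.6 to 24.5 CPM in the 6 WT libraries of those hours. The log2 differences were -5.76 ± 0.15 (adjusted p = 3.49e-18) at 3 h and -5.74 ± 0.15 (adjusted p = 3.77e-18) at 6 h by limma. ZNF135 was at 0.0514, 0 and 0.0864 CPM in KO and 2.17, 1.56 and 1.78 CPM in WT libraries at 3 h, and at 0, 0.0428 and 0 CPM in KO and 2.30, 1.82 and 1.79 CPM in WT libraries at 6 h. Before induction ZNF135 had 6.63, 6.79 and 6.82 CPM in KO and 2.16, 4.89 and 6.12 CPM in WT, and at 48 h 6.67, 7.37 and 7.70 CPM in KO and 5.33, 5.09 and 4.86 CPM in WT. Its level in WT was thus itself lower at 3 h and 6 h than at 48 h, without reaching the off range. The log2 differences for ZNF135 were -2.86 ± 0.23 (adjusted p = 5.31e-09) at 3 h and -3.14 ± 0.23 (adjusted p = 9.23e-10) at 6 h. At the other hours the calls were weak. ZNF844 was higher in KO at 48 h (0.52 ± 0.15, adjusted p = 0.0242), a call that ended without WT library 3 (adjusted p = 0.128) or without any 1 of the KO libraries (0.0586 to 0.0859). ZNF135 was higher in KO at 0 h (0.74 ± 0.23, adjusted p = 0.032), a call that ended in 8 of 16 alternative fits (adjusted p up to 0.271). These included the fits without WT library 1 (0.125), without any 1 of the KO libraries (0.0768 to 0.0894) and with edgeR (0.0832).

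ZNF57 was on throughout and had another pattern, with its lowest levels in the untreated KO libraries. It had 2.30, 2.30 and 2.18 CPM in KO and 11.7, 5.54 and 5.66 CPM in WT libraries at 0 h. At 3 h it had 9.25, 9.49 and 8.73 CPM in KO and 12.1, 12.4 and 11.3 CPM in WT, and at 6 h 7.52, 7.38 and 7.89 CPM in KO and 9.02, 10.8 and 9.44 CPM in WT. At 48 h it had 4.30, 4.48 and 4.57 CPM in KO and 8.12, 8.13 and 8.82 CPM in WT. KO libraries were below WT libraries at every hour without overlap, and the difference passed the test at 0 h (log2 -1.53 ± 0.18, limma adjusted p = 4.45e-06) and 48 h (-0.83 ± 0.18, adjusted p = 0.00199). It was -0.38 ± 0.18 (adjusted p = 0.297) at 3 h and -0.35 ± 0.18 (adjusted p = 0.508) at 6 h. Within KO, ZNF57 rose by 2.00 ± 0.18 (adjusted p = 1.18e-09) by 3 h. The call at 0 h ended when only the 2 groups compared entered the fit (adjusted p = 0.0612), and the gap at 0 h is wider to WT library 1 than to the other WT libraries.

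**Figure D2:**
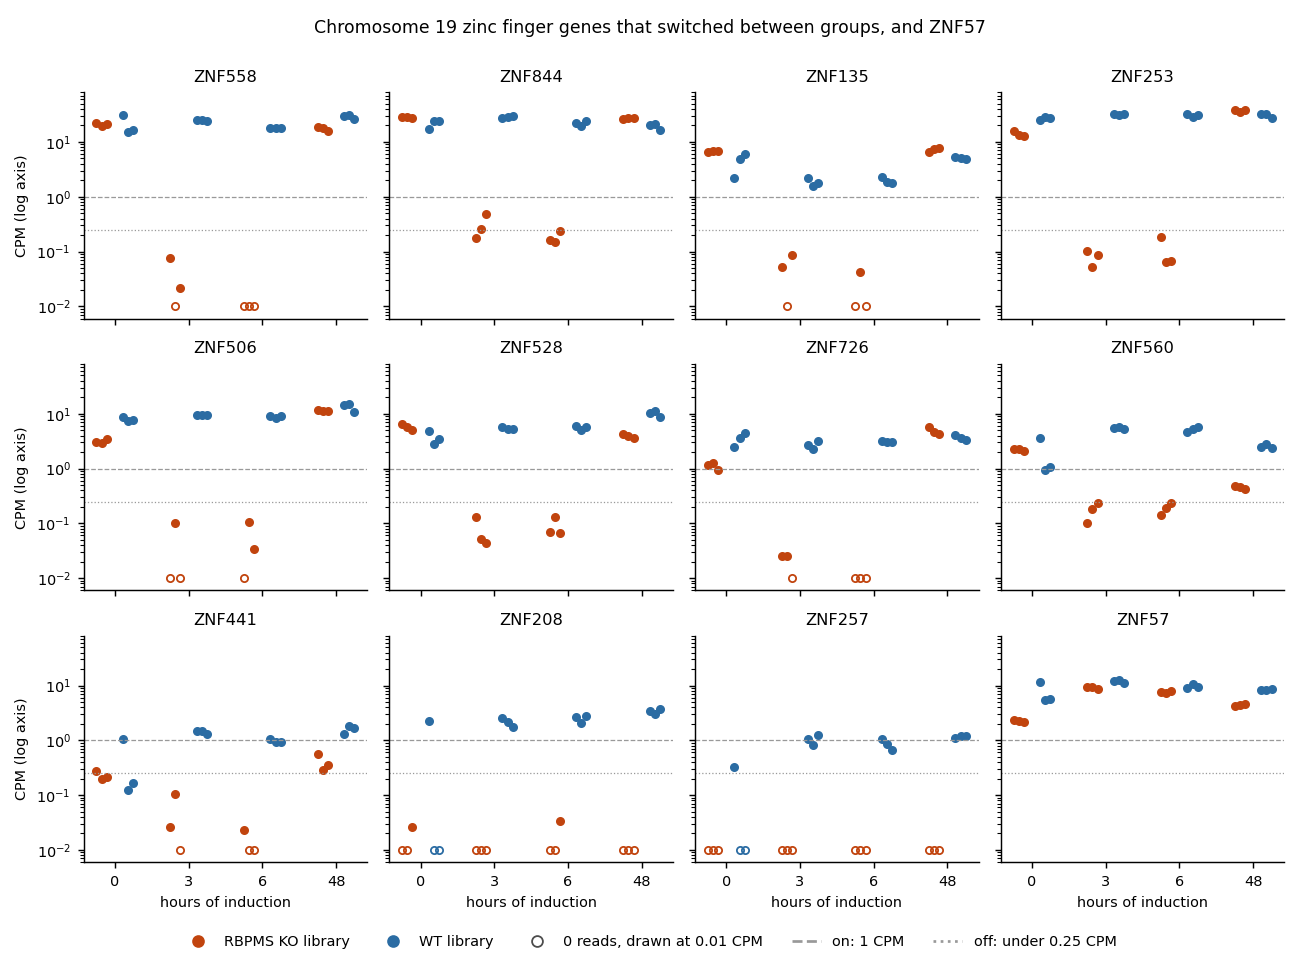
Level in CPM on a log axis of the 11 switching zinc finger genes and ZNF57 in each library, by hours of induction, with KO (orange) left of WT (blue). Each point is 1 library, open points have 0 reads and are drawn at 0.01 CPM, and the lines mark 1 and 0.25 CPM. In 9 of the panels KO points lie below 0.5 CPM at 3 h and 6 h and higher at 0 h or 48 h, while ZNF208 and ZNF257 are near 0 in KO at every hour and ZNF57 stays above 1 CPM.

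ZNF253 (chromosome 19, 19865886 to 19894674 on the plus strand) and ZNF506 (19785839 to 19821751 on the minus strand) lie near each other, and both were off in KO at 3 h and 6 h. ZNF253 had 0.103, 0.0515 and 0.0864 CPM in KO and 32.9, 31.3 and 32.4 CPM in WT libraries at 3 h (log2 -6.66 ± 0.12, limma adjusted p = 3.89e-21). The fitted difference was the largest of the family at that hour on the log2(CPM + 0.25) scale, but in reads the ratio was smaller than that of ZNF558. The reads were 10 in KO against 4116 in WT, or 399.9 times lower (95% counting interval 217 to 835). ZNF506 had 0, 0.103 and 0 CPM in KO and 9.37, 9.68 and 9.37 CPM in WT libraries at 3 h. The transcript counts, given below, held more reads of ZNF506 in KO than the gene table did. Both genes were also lower in KO before induction: ZNF253 had 15.99, 13.5 and 12.8 CPM in KO and 25.7, 28.5 and 27.8 CPM in WT, and ZNF506 3.04, 2.95 and 3.46 CPM in KO and 8.605, 7.32 and 7.83 CPM in WT. The log2 differences at 0 h were -0.91 ± 0.12 (adjusted p = 2.32e-05) and -1.23 ± 0.16 (adjusted p = 1.63e-05). At 48 h the levels were 38.4, 35.6 and 37.7 CPM in KO and 32.8, 32.8 and 27.3 CPM in WT for ZNF253, which did not pass the test (0.31 ± 0.12, adjusted p = 0.109).

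ZNF528 and ZNF726 were off in KO at 3 h and 6 h as well. ZNF528 had 0.129, 0.0515 and 0.0432 CPM in KO and 5.66, 5.22 and 5.20 CPM in WT libraries at 3 h, and it was also lower in KO at 48 h, with 4.25, 3.85 and 3.60 CPM in KO and 10.5, 11.4 and 8.55 CPM in WT (-1.28 ± 0.17, adjusted p = 1.02e-05). ZNF726 had 0 reads in all 3 KO libraries at 6 h and 3.15, 3.11 and 3.02 CPM in WT. Before induction ZNF726 had 1.16, 1.25 and 0.944 CPM in KO and 2.502, 3.65 and 4.46 CPM in WT (-1.40 ± 0.17, adjusted p = 1.24e-05), and at 48 h 5.85, 4.56 and 4.24 CPM in KO and 4.16, 3.67 and 3.39 CPM in WT. The KO level of ZNF726 was thus higher at 48 h than at 0 h, by 1.92 ± 0.17 (adjusted p = 4.24e-09) on the log2 scale. ZNF560 was off in KO at 3 h and 6 h and remained at 0.478, 0.468 and 0.428 CPM in KO at 48 h, against 2.44, 2.84 and 2.39 CPM in WT (-1.94 ± 0.27, adjusted p = 2.06e-05). ZNF441 had 0.0234, 0 and 0 CPM in KO and 1.07, 0.932 and 0.931 CPM in WT libraries at 6 h. ZNF441 was also split within untreated WT, with 1.06, 0.125 and 0.163 CPM, beside 0.278, 0.200 and 0.210 CPM in untreated KO.

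ZNF562 and ZNF880 were low in the same KO libraries without being off, and were chosen after their values were seen. ZNF562 had 0.848, 0.901 and 0.713 CPM in KO and 26.2, 27.2 and 25.8 CPM in WT libraries at 3 h, and 39.2 to 55.9 CPM in the KO libraries at 0 h and at 48 h. ZNF880 had 0.727, 0.407 and 0.602 CPM in KO and 13.1, 12.3 and 13.5 CPM in WT libraries at 6 h. Their log2 differences at 6 h were -4.83 ± 0.16 (adjusted p = 2.96e-16) and -4.05 ± 0.18 (adjusted p = 6.34e-14) by limma.

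The switching gene ZNF208 and its neighbours formed a different group, with almost no reads in any KO library. ZNF208 (21932958 to 22010949 on the minus strand), ZNF257 (22052452 to 22091480 on the plus strand), ZNF676 and ZNF729 follow each other among the 244 genes along the chromosome, between ZNF43 and ZNF98. ZNF676 and ZNF729 were chosen after their values were seen. ZNF208 had 0 reads in the 3 KO libraries and 3.39, 3.07 and 3.68 CPM in WT libraries at 48 h, and the 12 KO libraries of all hours ranged from 0 to 0.0335 CPM. At 48 h the 3 KO libraries held 0 reads against 417 in WT, at least 48.7-fold lower. The log2 difference was -3.30 ± 0.48 (adjusted p = 7.75e-05) at 3 h, -3.47 ± 0.48 (adjusted p = 4.16e-05) at 6 h and -3.79 ± 0.48 (adjusted p = 5.81e-06) at 48 h. For ZNF257 the 12 KO libraries held 0 reads, and the 9 induced WT libraries ranged from 0.654 to 1.26 CPM. At 48 h that was at least 16.9-fold lower in KO. ZNF676 ranged from 0 to 0.0515 CPM in KO and from 0.599 to 1.48 CPM in induced WT libraries, and ZNF729 from 0 to 0.0266 CPM in KO and from 0.182 to 0.434 CPM in induced WT libraries.

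Untreated WT libraries differed among themselves for these 4 neighbours. ZNF208 had 2.29, 0 and 0 CPM in WT 0 h libraries 1, 2 and 3, ZNF257 had 0.323, 0 and 0 CPM, ZNF676 had 0.776, 0 and 0 CPM and ZNF729 had 0.173, 0 and 0 CPM. Library 1 lay within the induced WT range for ZNF208 and ZNF676 and below it for ZNF257 and ZNF729, and libraries 2 and 3 were at 0 as nearly all KO libraries were. At 0 h the KO against WT difference of ZNF208 was -1.04 ± 0.48 (adjusted p = 0.153). The rise of ZNF208 in WT by 48 h, 2.70 ± 0.48 (adjusted p = 5.55e-05), was not called by DESeq2 (adjusted p = 0.313). With library 1 alone kept of untreated WT, where that 1 library is assumed to vary like the other groups, the ZNF208 change in WT was 0.04 at 3 h (limma adjusted p = 0.883), 0.28 at 6 h (0.258) and 0.53 at 48 h (0.0368). The ZNF257 change stayed called, at 1.25 at 3 h (2.79e-05), 1.06 at 6 h (0.000137) and 1.30 at 48 h (2.03e-05). Transcript counts of ZNF208 in WT 0 h libraries were 132, 0 and 1, the same split. Library 1 also stood apart from its replicates across all genes, and its part in these values was not tested. The next 5 genes along the chromosome, ZNF98, ZNF492, ZNF99, ZNF723 and ZNF728, were off in all 24 libraries, whereas ZNF43 and ZNF730 on either side of these 9 genes were on throughout. These genes are close paralogs, so reads that fit several of them may have been split or left out in the authors' counting.

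**Figure D3:**
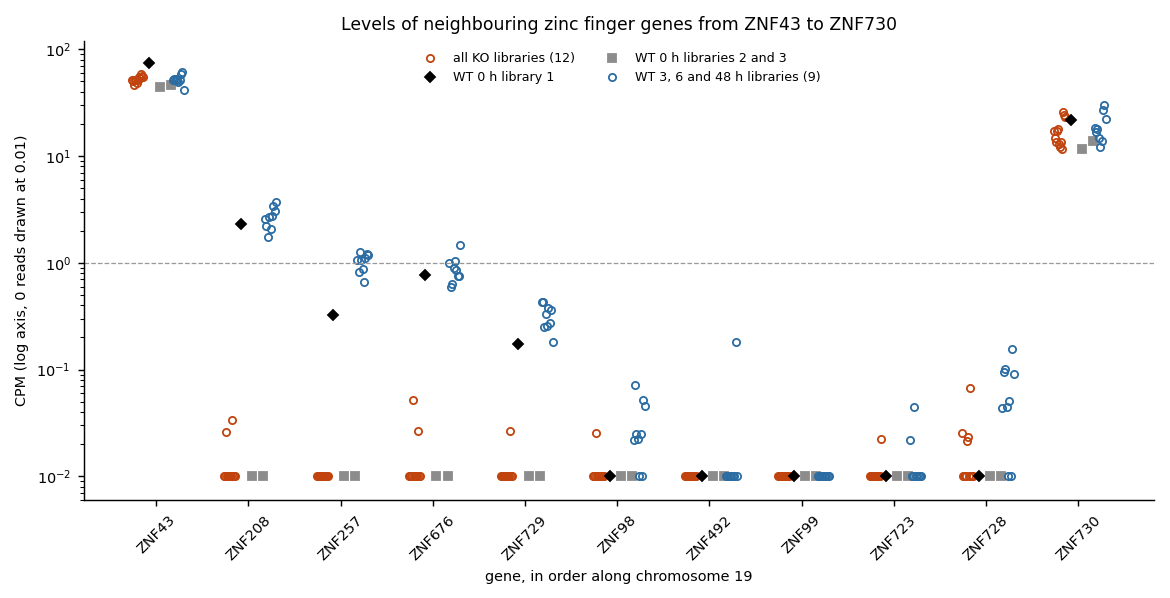
Levels in CPM on a log axis of 11 neighbouring zinc finger genes in order along chromosome 19, with KO libraries in orange, WT 0 h library 1 as a black diamond, WT 0 h libraries 2 and 3 as grey squares and induced WT libraries in blue; 0 reads are drawn at 0.01 CPM. From ZNF208 to ZNF729 the KO libraries and WT 0 h libraries 2 and 3 lie at or near 0, while WT 0 h library 1 lies within the induced WT range for ZNF208 and ZNF676 and below it for ZNF257 and ZNF729.

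At 3 h and 6 h all limma calls between KO and WT in this family were lower in KO. Of the 234 genes that passed the filter on low reads, 32 (13.7%) were lower and 0 higher in KO at 3 h by limma at an adjusted p under 0.05, beside 1.96% lower and 0.776% higher among all 19835 genes. At 6 h 28 (11.97%) were lower and 0 higher, beside 2.01% lower and 0.504% higher among all genes. At an unadjusted p under 0.05, 9 genes were higher at 3 h and 3 at 6 h, and DESeq2 called 1 higher at each hour while edgeR called 0. Related gene sets also had most of their calls in that direction. Zinc finger genes of other chromosomes had 12 of 240 (5%) lower at each of the 2 hours, with 1 and 2 higher. Of 904 other coding genes of chromosome 19, 22 were lower and 3 higher at 3 h. At 6 h 37 of them were lower and 1 higher. The median log2 difference of the family was -0.06 at 3 h and -0.03 at 6 h, beside 0.0038 and -0.0032 for all genes. For the other coding genes of chromosome 19 it was 0.006 at 3 h and -0.13 at 6 h. In the family the change lay in a minority of genes, of which 16 were over 4-fold lower at 3 h. When only the groups compared entered the fit, 44 genes were lower and 5 higher at 6 h, beside 9.68% and 5.98% of all genes. Without the 3 libraries that stood apart, 42 were lower and 0 higher at 3 h, beside 5.99% and 2.88% of all genes. At 6 h 40 were then lower and 3 higher, beside 6.47% and 5.48%.

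All 28 genes lower at 6 h were among the 32 lower at 3 h (87.5% of that list). The 2 comparisons share no libraries, but both used the same estimate of each gene's spread from the 1 fit. The 2 lists are therefore not fully independent. The 4 called lower at 3 h and not at 6 h had small differences, and were named after their values were seen: ZNF565, ZNF850, ZNF577 and ZNF350 at -0.45 ± 0.12, -0.36 ± 0.089, -0.49 ± 0.11 and -0.50 ± 0.10 on the log2 scale. Most of the 28 were not lower at the other hours. At 0 h 5 of the 28 were lower in KO, 7 were higher and 16 were not called. At 48 h 8 were lower, 6 higher and 14 not called. ZNF578 shows the turn in 1 gene: it had 61.9, 47.9 and 41.1 CPM in KO and 20.2, 10.5 and 13.9 CPM in WT libraries at 0 h, and 2.37, 2.60 and 2.49 CPM in KO and 10.8, 11.3 and 9.94 CPM in WT libraries at 3 h. Its log2 difference was 1.81 ± 0.17 (adjusted p = 2.92e-07) at 0 h and -2.01 ± 0.17 (adjusted p = 9.43e-09) at 3 h.

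The early differences were unevenly placed along the chromosome. With a new block begun at each gap of more than 1 Mb between starts, the 244 genes fell into 16 blocks. The block from 19.67 to 24.13 Mb, next to the centromere, held 37 genes, and 14 of its 32 tested genes were lower in KO at 3 h and at 6 h. The block from 51.57 to 53.58 Mb held 8 of 38 tested genes lower at 3 h and 6 at 6 h. At the end of the long arm, in the block from 55.48 to 58.48 Mb, 1 of 58 was lower at each hour, and that gene was ZNF135. The block from 43.53 to 45.08 Mb had 0 of 22 lower at 3 h and at 6 h. These counts describe position, and no test was made of the placement.

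**Figure D4:**
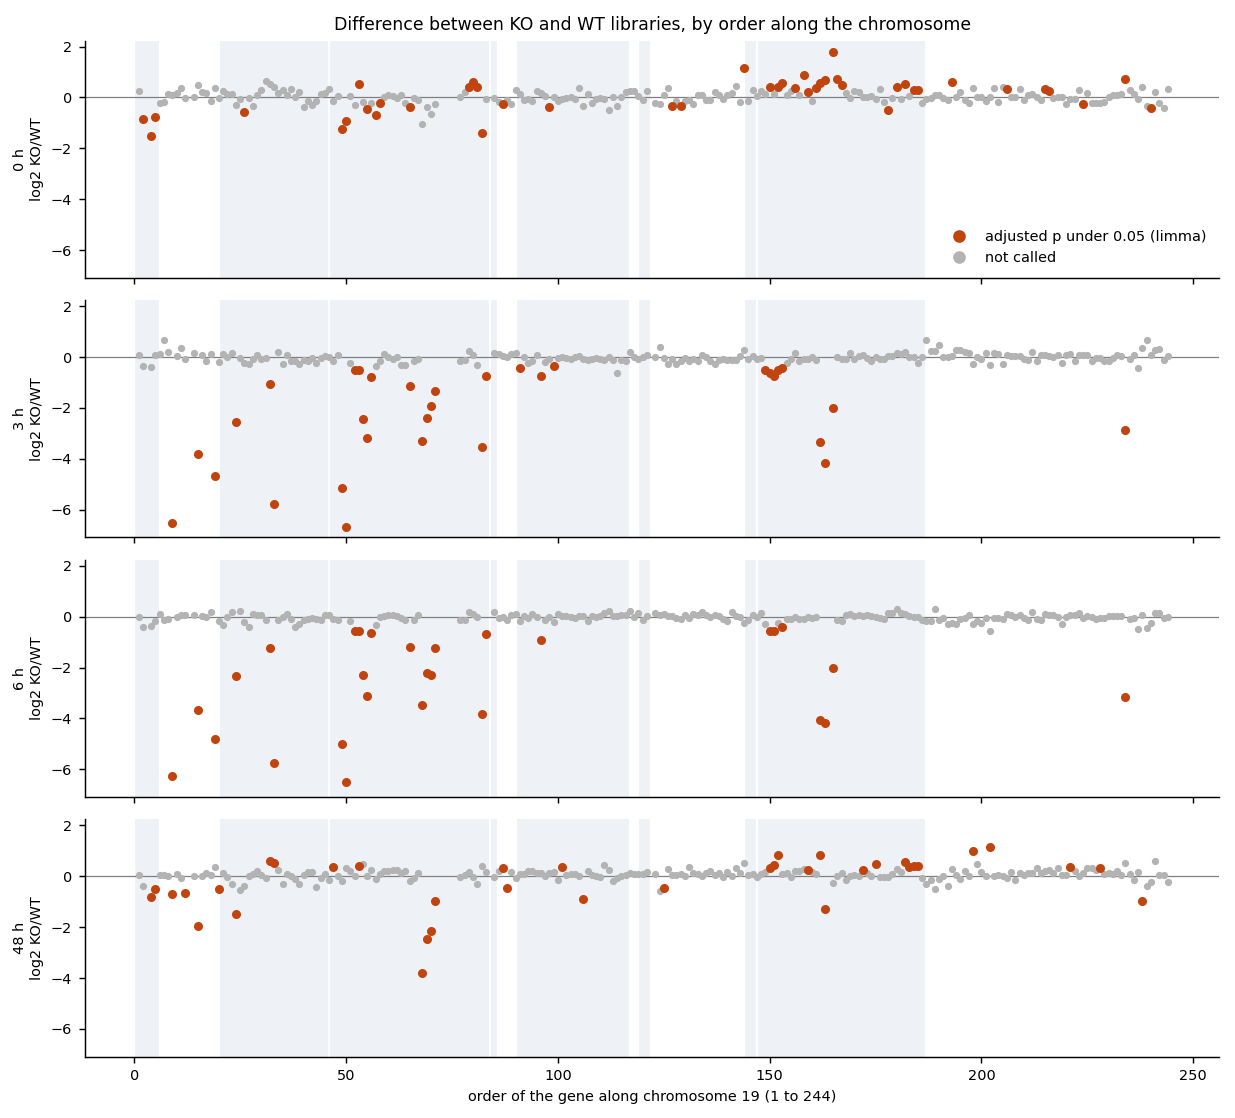
Log2 difference of KO over WT for the tested zinc finger genes at 0, 3, 6 and 48 h, against their order along chromosome 19; orange points were called by limma at an adjusted p under 0.05, grey points were not, and alternate blocks are shaded. At 3 h and 6 h all orange points lie below 0, down to -6.66, whereas at 0 h and 48 h they lie on both sides.

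In untreated cells 26 of the 234 genes were higher and 18 lower in KO than in WT, beside 8.22% higher and 7.16% lower among all genes (11.1% and 7.69% of the family). Of the 26 higher, 16 lay in the block from 51.57 to 53.58 Mb. The largest were ZNF578, described above, ZNF296, with 2.07, 3.12 and 3.75 CPM in KO and 1.06, 1.52 and 1.01 CPM in WT, and ZNF836, with 16.9, 18.5 and 16.6 CPM in KO and 7.397, 10.3 and 11.04 CPM in WT. Their log2 differences were 1.16 ± 0.25 (adjusted p = 0.00327) and 0.89 ± 0.14 (adjusted p = 0.000138). The calls of ZNF296 and ZNF836 ended when only the groups compared entered the fit (adjusted p = 0.0803 and 0.0548). Under the same condition of 1 CPM in every library of 1 group, ZNF57, ZNF726 and ZNF506 had the largest lower calls. The shares were not far from those of all genes, and the counts depended on single libraries. They were 56 higher and 31 lower without WT library 1 (16.9% and 16% of all genes) and 17 and 12 without WT library 2 (4.45% and 3.24%). They were 15 and 12 without KO library 1 (4.87% and 3.75%) and 16 and 11 without KO library 2 (4.97% and 4.06%), so the counts over all genes moved as well. Without the 3 libraries that stood apart 70 were higher and 43 lower, beside 23% and 23.8% of all genes. When only the 2 groups entered the fit, 1 was higher and 3 lower (0.682% and 0.268% of all genes), and on CPM as deposited the split was 20 higher and 21 lower.

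At 48 h 21 genes were higher and 16 lower in KO than in WT, beside 7.59% higher and 4.73% lower among all genes (8.97% and 6.84% of the family), shares close to each other. ZNF835 had 2.98, 2.46 and 2.25 CPM in KO and 1.07, 0.800 and 1.27 CPM in WT (1.15 ± 0.22, adjusted p = 0.000614). ZNF667 had 35.5, 33.3 and 34.2 CPM in KO and 18.4, 19.3 and 15.4 CPM in WT (0.99 ± 0.13, adjusted p = 1.14e-05). ZNF880, among the genes near 0 in KO at 6 h, was higher in KO at 48 h, with 33.6, 34.5 and 33.7 CPM in KO and 18.7, 17.8 and 21.5 CPM in WT (0.85 ± 0.18, adjusted p = 0.00194). Among genes with at least 1 CPM in every library of 1 of the groups, the largest lower calls were ZNF208, ZNF257 and ZNF560, described above. Of the genes called at 0 h, 8 were higher and 2 lower at both 0 h and 48 h. Without the 3 libraries that stood apart, 33 were higher and 24 lower at 48 h, beside 13.3% and 10.4% of all genes.

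After induction the family rose more often than it fell in both genotypes. At 3 h 119 genes were higher and 51 lower than at 0 h in KO, beside 34.8% and 30.9% of all genes, and 143 were higher and 24 lower in WT, beside 30.3% and 25.3%. In shares of the 234 this was 50.9% higher and 21.8% lower in KO and 61.1% higher and 10.3% lower in WT. The median log2 change at 3 h was 0.32 in KO and 0.50 in WT, beside 0.03 and 0.05 for all genes, and 0.27 in KO and 0.18 in WT for zinc finger genes of other chromosomes. At 6 h 104 were higher and 61 lower in KO (35.5% and 33.4% of all genes), and 129 were higher and 39 lower in WT (33.2% and 29.2%). At 48 h 101 were higher and 34 lower in KO (30.2% and 24.4% of all genes), and 91 were higher and 25 lower in WT (29.3% and 25% of all genes). Without the 3 libraries that stood apart, 122 were higher and 61 lower in KO at 3 h (36.3% and 37.2% of all genes), and 150 were higher and 38 lower in WT (33.7% and 32.9%). At 6 h the counts were then 115 and 67 in KO (38.8% and 39.5%) and 141 and 49 in WT (35.5% and 35.1%), and at 48 h 123 and 44 in KO (37.5% and 31%) and 124 and 34 in WT (33.9% and 29.9%). The 3 comparisons of a genotype share its 0 h libraries, so their counts are not independent. Zinc finger genes of other chromosomes rose too, with 47.5%, 44.6% and 40.4% higher in KO at 3, 6 and 48 h. In WT these shares were 45.8%, 45.4% and 36.25%. The family had 50.9%, 44.4% and 43.2% higher in KO and 61.1%, 55.1% and 38.9% in WT. Lower calls took 18.75% to 31.25% of the genes of other chromosomes and 10.3% to 26.1% of the family. On CPM as deposited, with no further scaling, the WT split was 117 higher and 40 lower at 3 h and 99 and 53 at 6 h, where the median of all genes was itself -0.11.

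ZNF121 fell in both genotypes. It had 59.6, 56.1 and 53.2 CPM at 48 h against 209.5, 181 and 165 CPM at 0 h in KO, and 56.8, 53.1 and 48.2 CPM against 152, 162 and 193 CPM in WT. The log2 changes were -1.68 ± 0.12 (adjusted p = 4.32e-11) in KO and -1.65 ± 0.12 (adjusted p = 4.49e-11) in WT. ZNF331, an imprinted gene, had 27.2, 26.4 and 27.3 CPM at 48 h against 59.6, 58.5 and 58.9 CPM at 0 h in KO, and 34.1, 26.4 and 26.5 CPM against 62.0, 70.6 and 81.1 CPM in WT. Its log2 changes were -1.09 ± 0.11 (adjusted p = 2.68e-08) in KO and -1.27 ± 0.11 (adjusted p = 2.01e-09) in WT. ZNF878 had 0.972, 0.697 and 0.909 CPM at 48 h against 2.35, 3.32 and 4.16 CPM at 0 h in WT (-1.61 ± 0.18, adjusted p = 1.34e-07). ZNF497 had 1.84, 1.55 and 1.80 CPM at 48 h against 0.173, 0.225 and 0.326 CPM at 0 h in WT (2.00 ± 0.17, adjusted p = 7.3e-10). ZNF837 had 1.28, 1.32 and 1.08 CPM at 48 h against 0.228, 0.349 and 0.236 CPM at 0 h in KO (1.51 ± 0.32, adjusted p = 0.000369). None of these pairs of groups overlapped, which for all but the ZNF331 change in KO was a condition for naming the gene. ZNF878, ZNF497 and ZNF837 were also called at 48 h, in the same direction, in the genotype not shown here. By the limma interaction term at 48 h, ZNF878 (0.063, adjusted p = 0.922) and ZNF837 (-0.049, adjusted p = 0.967) were not called. ZNF497 rose less in KO (-1.36, adjusted p = 0.000596).

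**Figure D5:**
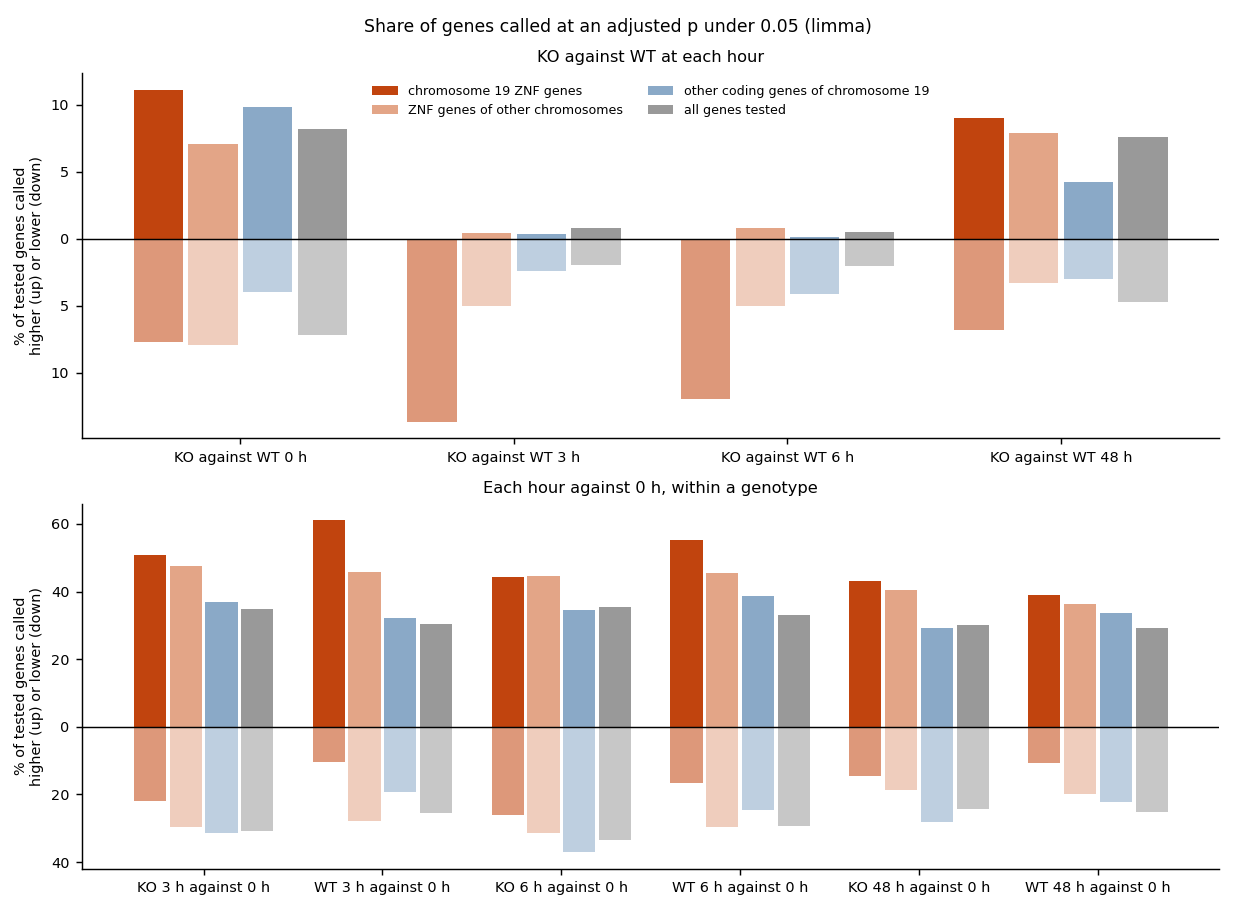
Share in % of tested genes called higher (bars above 0) or lower (bars below 0) by limma at an adjusted p under 0.05, for chromosome 19 zinc finger genes, zinc finger genes of other chromosomes, other coding genes of chromosome 19 and all genes tested. In KO against WT (top) the family has 13.7% lower at 3 h and 11.97% at 6 h with no bar above 0, and after induction (bottom) its bars above 0 reach 61.1% in WT at 3 h.

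The change after induction differed between genotypes, by the interaction term of the same fit (the change in KO minus the change in WT), for 40 genes at 3 h (3 positive and 37 negative), 38 at 6 h (4 and 34) and 26 at 48 h (14 and 12). Among all genes the shares were 3.72% positive and 5.35% negative at 3 h, 3.06% and 5.42% at 6 h, and 4.45% and 3.55% at 48 h. Without WT 0 h library 1 the counts were 73, 74 and 73 at 3, 6 and 48 h, beside 25.2%, 24.7% and 25.8% of all genes, against 9.07%, 8.49% and 8% with it. Without the 3 libraries that stood apart they were 108, 98 and 94, beside 37.9%, 39.9% and 38.3% of all genes. At 48 h the count was 15 without WT 0 h library 2, 17 without library 1 of untreated KO and 17 without library 2 of KO at 48 h, beside 5.22%, 5.61% and 5.07% of all genes.

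Levels can be compared between genes only per length. Per kilobase of exon, ZNF146, ZNF649 and ZNF738 were the highest of the genes, at 73.3, 33.1 and 24.2 CPM per kb on average over all libraries, beside a median of 2.56. ZNF146 consists almost wholly of zinc fingers and lacks a KRAB domain. It had 267 to 355 CPM in KO and 255 to 365 CPM in WT libraries, and none of its KO against WT differences was called. ZNF649 was higher in KO at 0 h (0.41 ± 0.067, adjusted p = 0.000221) and lower at 3 h (-0.64 ± 0.067, adjusted p = 5.64e-07), with 134, 148 and 139 CPM in KO and 220.0, 216 and 214 CPM in WT libraries at 3 h. Its call at 0 h ended when only the groups compared were fitted (adjusted p = 0.0748). ZNF91 and ZNF93, which repress SVA and LINE-1 elements, were named for those known targets with their values seen. ZNF93 had 84.9, 89.6 and 91.6 CPM in KO and 101, 103 and 104 CPM in WT libraries at 3 h, and ZNF91 93.7, 100.5 and 102 CPM in KO and 84.0, 79.8 and 84.4 CPM in WT. Their log2 differences at 3 h were -0.22 ± 0.08 (adjusted p = 0.178) for ZNF93 and 0.24 ± 0.12 (adjusted p = 0.349) for ZNF91.

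The co-repressor machinery of KRAB zinc finger proteins was read from a list of 34 genes, of which 33 were tested. The list also held the DNA demethylases TET1, TET2 and TET3 and the zinc finger gene ZFP57, so its shares are not of co-repressors alone. TRIM28 itself had 590.1, 586.6 and 873 CPM in KO and 624, 633 and 604 CPM in WT libraries at 3 h (0.10 ± 0.11, adjusted p = 0.677), and its high value in KO was in library 3, which stood apart. In KO against WT, limma called 0 of the 33 at 3 h and 0 at 6 h, with 3 and 2 at an unadjusted p under 0.05. At these hours edgeR and DESeq2 also called 0. Among all genes limma called 0.776% higher and 1.96% lower at 3 h, and 0.504% and 2.01% at 6 h. A count of 0 among 33 genes is near those shares. At 0 h 4 of the 33 were called (12.1%), beside 15.4% of all genes; edgeR called 4 and DESeq2 7. The DNA demethylases TET1 (0.57 ± 0.11, adjusted p = 0.00155) and TET2 (0.53 ± 0.15, adjusted p = 0.0215) and the silencing factor MORC2 (0.31 ± 0.094, adjusted p = 0.0296) were higher in KO, and the histone methyltransferase SUV39H2 (-0.56 ± 0.10, adjusted p = 0.000756) was lower. At 48 h 4 were called (12.1%), beside 12.3% of all genes, and edgeR and DESeq2 called 3 each. SUV39H1 (0.72 ± 0.12, adjusted p = 0.000139), the DNA methyltransferase DNMT3A (0.37 ± 0.087, adjusted p = 0.00596) and TET1 (0.35 ± 0.11, adjusted p = 0.0434) were higher, and the remodeller CHD3 (-0.40 ± 0.11, adjusted p = 0.0235) was lower.

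Marker lists were read for the cell types these cultures could hold. At 3 h the summed level of 8 stem cell markers was 7535 to 8331 CPM in KO and 8315 to 8601 CPM in WT libraries, and at 6 h 7511 to 7742 CPM in KO and 8134 to 8475 CPM in WT, with all 8 on in every group. The 8 mesoderm markers summed to 72.5 to 77.7 CPM in KO and 111 to 117 CPM in WT libraries at 6 h, with 5 of 8 on in each. That gap lay in KDR, with 57.1, 58.6 and 55.3 CPM in KO and 98.6, 91.8 and 96.5 CPM in WT libraries, and 1 of the 8 was called lower at each of 3 h and 6 h. At 3 h and at 6 h 1 of the 8 stem cell markers was called lower, and 0 of the extra-embryonic, endoderm and neuroectoderm markers were called by limma (1 at 3 h and 2 at 6 h at an unadjusted p under 0.05, all extra-embryonic). The 6 fibroblast markers summed to 459 to 464 CPM in KO and 664 to 697 CPM in WT libraries at 3 h and to 439 to 462 CPM in KO and 595 to 649.9 CPM in WT libraries at 6 h, with 4 of 6 on in each. Most of each sum was THY1, with 408, 415 and 349 CPM in KO and 540, 578 and 552 CPM in WT libraries at 3 h. THY1 was also at 244 to 651 CPM in the untreated libraries. LUM and DCN were at most 0.10 CPM in any library, and DCN was at 0 in all 3 WT libraries of 6 h. The sums thus mostly follow THY1, and whether they reflect fibroblasts was not tested. Of the 4 fibroblast markers tested, limma called 1 lower at 3 h and 2 lower at 6 h, and 0 higher. COL1A2 had 3.39, 3.55 and 6.92 CPM in KO and 40.4, 37.8 and 35.9 CPM in WT libraries at 3 h. Among the stem cell markers, ZFP42 had 24.9, 25.8 and 22.2 CPM in KO and 128, 124 and 125 CPM in WT libraries at 3 h. Within KO both stood higher at 0 h and 48 h than at 3 h, ZFP42 at 184 to 213 CPM and COL1A2 at 120 to 231 CPM. The 5 extra-embryonic markers summed to 49.0 to 69.7 CPM in KO and 44.3 to 51.2 CPM in WT libraries at 3 h, with 4 of 5 on in each. The 4 endoderm and 4 neuroectoderm markers summed to 0.514 to 0.843 and 16.9 to 27.2 CPM in KO and 0.694 to 0.862 and 21.7 to 26.9 CPM in WT libraries at 3 h. At 48 h the mesoderm markers summed to 1439 to 1609 CPM in KO and 1977 to 2265 CPM in WT, and the stem cell markers to 7352 to 7527 CPM in KO and 5506 to 5823 CPM in WT. The part of these differences in the zinc finger results was not tested.

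Of the 244 genes, 213 had a promoter window in the RefSeq table. Among the 23 windows of genes lower in KO at both 3 h and 6 h, 56.5% held CCAATCA or TGATTGG, against 26.3% of the 179 windows of the other tested zinc finger genes and 6.95% of all 35116 windows. The motif was chosen with the gene lists known, and the share is a description. Of the 28 genes lower at both hours, 14 lay in the block from 19.67 to 24.13 Mb. Neighbours can share promoter sequence, as the windows of ZNF208 and ZNF257 do, so the windows are not independent. The part of position in these shares was not tested. The same 23 windows held a median of 16 CG dinucleotides, against 21 in the 179 and 14 in all windows.

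The deposited counts per transcript, which hold 22.1% to 26.4% of the reads and were not normalized, were summed per gene for some of these genes. Summed over transcripts, ZNF558 had 0 counts in all 3 KO libraries and 109 to 114 in WT libraries at 3 h, ZNF844 1 to 6 in KO and 521 to 554 in WT, and ZNF253 0 to 1 in KO and 224 to 298 in WT. ZNF257 had 0 to 1 counts in KO and 0 to 3 in WT libraries at 3 h, so these counts do not separate the genotypes for it. ZNF506 kept 12 to 19 counts per KO library at 6 h, against 115 to 156 in WT. In the gene table the 3 KO libraries of 6 h together held only 6 reads of ZNF506, against 1186 in WT, or 175 times lower. The transcript counts thus exceeded the gene table's reads in KO and gave a smaller gap. The off state of ZNF506 therefore holds for the gene table only. ZNF57 had 14 to 19 counts in KO and 18 to 99 in WT at 0 h. For ZNF558 most counts at 0 h came from the retained-intron transcript ZNF558-205, with 156 to 238 in KO and 100 to 309 in WT, beside 21 to 29 in KO and 25 to 28 in WT for the coding transcript ZNF558-207. The annotation places other transcription units over several of these genes, such as ZSCAN18 on the opposite strand at ZNF135 and ZNF561-AS1 at ZNF562. The kit keeps strand, but the strand setting of the authors' counting is not given in the sources used here, so reads of overlapping genes may be mixed.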

How the data were processed

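The authors deposited a gene table of CPM, reads per gene scaled to the library's total, and a transcript table of raw counts. hg38 and DESeq2 are named per the submitters' processing notes; no aligner, counter or strand setting is given in the sources used here. In the gene table the header is shifted by 1 cell, so each name was moved 1 cell to the right; 20 of 24 libraries then matched their own transcript counts best, against 0 with the header as it stands. Whole reads were recovered from the deposited CPM (100% whole within 0.1 read).

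CPM was divided by TMM factors, logged as log2(CPM + 0.25) and fitted with limma's trended empirical Bayes test in 1 model over 8 groups and 24 libraries, for 13 comparisons. Genes had to pass edgeR's filter (10 reads, total 15), which left 19835. All of them entered the Benjamini and Hochberg adjustment, and calls were made at 0.05. Symbols were found for 52338 genes (90.5%). Values of 3 reads bound a level of 0, and intervals are 95% and cover counting error only. On data simulated for KO against WT at 48 h (19027 genes), 46%, 90% and 100% of genes changed 1.5-, 2- and 4-fold were recovered, with 2 false calls among 170. The simulation gave every gene the same dispersion and had no library that stood apart. Only genes with a mean above 1 CPM were changed in it. Its rates therefore need not hold for the real libraries. The tools were R 4.3.3, limma 3.58.1, edgeR 4.0.16, DESeq2 1.42.0, Python 3.11.15, numpy 2.4.6, pandas 2.3.3, scipy 1.17.1 and matplotlib 3.10.9.

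The genes, the lists and the rules were chosen with earlier results of these data known. Genes named with values were ZNF558, ZNF844, ZNF135 and ZNF57; those that switched or split within a group; the 3 largest called changes in each direction per KO against WT and 48 h against 0 h comparison, with no overlap and at least 1 CPM in every library of 1 group; the 3 highest per kb; and called co-repressor genes with TRIM28. Others are marked where they occur. The alternatives were other scalings, pseudocounts and filters, edgeR and DESeq2 on the recovered reads, a replicate block, only the groups compared, and each library left out. Leaving out the 3 libraries that stood apart, and keeping library 1 alone of untreated WT, were chosen after seeing the data. Libraries with the same replicate number did not deviate together (correlations -0.18 to 0.22, medians about 0), so the numbers were not taken as pairs. Depth was 29896358 to 50451908 recovered reads per library. Between replicates the chi-square per gene was 3.27 to 158.5, above sampling noise, so none was counted as a repeat.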

Additional observations from a re-analysis of the deposited data

Results flagged for a closer look

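The change after induction differed between KO and WT by the interaction term of the limma fit (change in KO minus change in WT, log2) for 40 of the 234 tested genes at 3 h, 38 at 6 h and 26 at 48 h. These are 17.1%, 16.2% and 11.1% of the 234, beside 9.07%, 8.49% and 8% of all genes. At 3 h the term was -6.64 for ZNF558, -6.18 for ZNF844, -5.75 for ZNF253, -4.83 for ZNF528, -4.28 for ZNF560, -3.93 for ZNF506, -3.59 for ZNF135, -2.28 for ZNF441, -2.26 for ZNF208, -2.12 for ZNF726 and -2.01 for ZNF257. ZNF57 had a positive term of 1.15. At 6 h the same genes stood at -6.39 for ZNF558, -6.16 for ZNF844, -5.60 for ZNF253, -4.85 for ZNF528, -4.15 for ZNF560, -3.88 for ZNF135, -3.79 for ZNF506, -2.43 for ZNF208, -2.42 for ZNF726, -2.04 for ZNF441 and -1.83 for ZNF257, and ZNF57 at 1.18.

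At 48 h the term was negative for ZNF208 (-2.75), ZNF560 (-2.41), ZNF257 (-2.07), ZNF528 (-1.95) and ZNF558 (-0.79), and positive for ZNF726 (1.79), ZNF253 (1.22) and ZNF506 (1.05). The 3 terms of ZNF208 and of ZNF257 were not called by edgeR (adjusted p = 0.726 to 1). With library 1 alone kept of untreated WT, which is assumed to vary like the other groups, the limma terms of ZNF208 for 3, 6 and 48 h were -0.089, -0.26 and -0.58 (adjusted p = 0.88, 0.584 and 0.163). Those of ZNF257 stayed called, at -1.25, -1.06 and -1.30 (adjusted p = 0.00155, 0.00608 and 0.00158). The ZNF57 term at 3 h was not called when only the groups compared entered the fit (adjusted p = 0.0705). The ZNF558 term at 48 h ended without any 1 of 11 of the 12 libraries in it, all but untreated WT library 1 (adjusted p = 0.0546 to 0.159), and was not called by edgeR (0.105). The ZNF208 term ended at 3 h without any 1 of 11 of its 12 libraries, again all but untreated WT library 1 (0.055 to 0.127), and at 6 h without 9 of the 12 (0.0501 to 0.0889).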

How the results depend on the processing

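Of 217 calls of named genes, 160 held under every alternative and 57 ended under some. For counts of called genes, fitting only the groups compared gave 4 genes for KO against WT at 0 h, 49 at 6 h, 55 for WT at 48 h against 0 h, and 26 and 12 for the interaction at 3 h and 48 h. Leaving out the 3 libraries that stood apart gave 113 genes for KO against WT at 0 h, 43 at 6 h and 57 at 48 h, and 108, 98 and 94 for the interaction at 3, 6 and 48 h. Leaving out 1 library at a time gave 27 to 87 for KO against WT at 0 h, 29 to 33 at 3 h, 26 to 28 at 6 h and 26 to 37 at 48 h, and 32 to 73, 31 to 74 and 15 to 73 for the interaction at 3, 6 and 48 h. With off taken as under 0.1 CPM, 16 genes were off in KO at 3 h, 7 in WT at 3 h, 7 in WT at 48 h, and 6 switched. For the counts of called genes, the shares over all genes moved too wherever they are given above. Those counts are thus no result about the family alone. The cause of these shifts was not tested.

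With untreated WT library 1 as the sole 0 h WT library, the log2 change in WT turned sign for ZNF558 at 3 h (-0.17) and 48 h (-0.078), ZNF57 at 6 h (-0.085), ZNF135 at 6 h (0.040), ZNF560 at 48 h (-0.44), ZNF578 at 48 h (-0.0063) and ZNF667 at 3 h (0.10) and 6 h (0.11).

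The replicate numbers are not known to pair libraries. With them as a block, KO against WT gave 43 genes at 0 h, 32 at 3 h, 28 at 6 h and 38 at 48 h, and no count moved by more than 1.5 times; the WT change of ZNF560 at 48 h lost its call under it (adjusted p = 0.0596). The depth limits levels of 0 to under 0.0595 to 0.1003 CPM, and levels of near-identical paralogs remain uncertain.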

Other observations

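ZNF439 and ZNF541, chosen after their values were seen, were under 0.25 CPM after induction in both genotypes. At 0 h ZNF439 had 0.304, 0.499 and 0.341 CPM in KO and 0.518, 0.325 and 0.353 CPM in WT libraries, and at 3 to 48 h it ranged from 0 to 0.106 CPM in KO and from 0.0396 to 0.151 CPM in WT. At 0 h ZNF541 had 0.354, 0.449 and 0.262 CPM in KO and 0.280, 0.549 and 0.462 CPM in WT, and at 3 to 48 h it ranged from 0 to 0.129 CPM in KO and from 0.0227 to 0.151 CPM in WT. For both genes the untreated libraries lay above all induced ones. ZNF564 was above 1 CPM in all 3 WT libraries of 48 h (1.30, 1.03 and 1.02 CPM) and below it in the other 21 libraries, including 0.558, 0.733 and 0.946 CPM in KO at 48 h.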
